A study of Mus musculus with 2 samples.

Results

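Binding of p300 around 4 genes of the GATA family, Gata4, Gata5, Gata2 and Gata3, was compared between the heart and the midbrain of mouse embryos. Each gene was taken as a fixed window on the mouse build mm9, and its members were the listed p300 peaks with their midpoint in that window. The windows ran on chromosome 14 from 63650000 to 64050000 for Gata4, on chromosome 2 from 179900000 to 180250000 for Gata5, on chromosome 6 from 87950000 to 88350000 for Gata2 and on chromosome 2 from 9300000 to 10100000 for Gata3. They held 15 peaks of the 6383 listed in both tissues, 13 from the heart list of 3597 and 2 from the midbrain list of 2786. The rule uses positions alone, although the genes were picked with earlier results of these data known.

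Both groups were CD-1 embryos at embryonic day 11.5, of mixed sex and without any treatment or mutation named in the labels, and each tissue was pooled from about 150 embryos into 1 library. Chromatin was immunoprecipitated with an antibody against p300 and sequenced (ChIP-seq). Depth was 1303861 aligned heart reads against 5869671 midbrain reads, and a single read equals 0.767 rpm (reads per 1000000 aligned reads) for heart but 0.170 rpm for midbrain. No difference has a replicate check, and the intervals given are 95% intervals that cover counting error only. In whole tissue, more cells with p300 at a site and more p300 per cell cannot be told apart, and the tissue labels were not checked against marker genes, since no expression was measured.

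GATA factors are zinc finger transcription factors that bind DNA at the core letters GATA. Gata4 is required for heart muscle, endocardium and septum formation, and Gata5 acts in the endocardium and in valve development. Gata2 is a regulator of blood progenitors and endothelium, Gata3 is known from T cells, sympathetic neurons and the inner ear, and both act in GABAergic neurons of the midbrain. p300 is a histone acetyltransferase recruited to active enhancers, so its peaks near a gene are commonly read as candidate enhancers. Enhancers of such developmental regulators are often spread over long distances, which is why whole windows were examined.

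The starts of 3 of the 4 genes had an entry among the RefSeq promoters of build GRCm38.p6, with 2 starts for Gata2, and are shown because GATA factors are known to bind at GATA genes. Each stretch covers 250 bases before to 50 bases after the start. Capitals mark matches to the motif AGATAA or its variants TGATAA or AGATAG or TGATAG on either strand, with no 2 matches overlapping.
Gata5, chr2:180334630-180334929, minus strand: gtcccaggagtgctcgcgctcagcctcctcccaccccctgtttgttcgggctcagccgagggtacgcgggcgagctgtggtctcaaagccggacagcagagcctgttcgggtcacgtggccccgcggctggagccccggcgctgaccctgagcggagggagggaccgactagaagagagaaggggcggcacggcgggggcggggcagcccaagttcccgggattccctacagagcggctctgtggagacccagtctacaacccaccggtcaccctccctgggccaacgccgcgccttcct
Gata2, first listed start, chr6:88193641-88193940, plus strand: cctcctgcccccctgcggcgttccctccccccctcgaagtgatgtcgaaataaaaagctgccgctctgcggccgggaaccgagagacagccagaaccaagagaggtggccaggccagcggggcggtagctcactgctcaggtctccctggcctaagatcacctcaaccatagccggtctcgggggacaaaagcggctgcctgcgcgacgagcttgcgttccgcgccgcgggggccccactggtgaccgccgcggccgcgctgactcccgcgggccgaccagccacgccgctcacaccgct
Gata2, second listed start, chr6:88198414-88198713, plus strand: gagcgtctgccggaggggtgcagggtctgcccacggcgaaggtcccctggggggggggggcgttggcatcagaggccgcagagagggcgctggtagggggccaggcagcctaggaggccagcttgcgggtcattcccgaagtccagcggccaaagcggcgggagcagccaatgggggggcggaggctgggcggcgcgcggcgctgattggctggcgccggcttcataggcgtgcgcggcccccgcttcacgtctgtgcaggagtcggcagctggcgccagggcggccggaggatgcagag
Gata3, chr2:9878551-9878850, minus strand: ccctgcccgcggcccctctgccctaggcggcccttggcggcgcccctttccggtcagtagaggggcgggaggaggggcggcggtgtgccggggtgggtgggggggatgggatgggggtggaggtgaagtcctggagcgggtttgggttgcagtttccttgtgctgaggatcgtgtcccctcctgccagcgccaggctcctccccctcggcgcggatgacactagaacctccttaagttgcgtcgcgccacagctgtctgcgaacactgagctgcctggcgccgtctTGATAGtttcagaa
Only the Gata3 sequence held a match, 1 TGATAG as printed, while 29.8% of all 32851 promoters in the table held at least 1. The 4 stretches held between 22 and 32 CG pairs each, against a median of 7 over all promoters. A match is a description of letters, and its absence from these bases says nothing about the factor. Peak coordinates are on mm9 and these starts on another build, so peaks were not placed relative to the starts, and the sequence under the peaks was not analysed here.

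The Gata4 window stood out among the 4 by its number of p300 peaks. It held 10 heart peaks and no midbrain peak, whereas the Gata5 and Gata3 windows held 1 heart and 1 midbrain peak each and the Gata2 window held 1 heart peak and no midbrain peak. Cut into consecutive tiles of 400 kb, the genome gave 4 tiles of 6418 with 10 or more heart peaks (0.0623%), and 1 of these overlapped the Gata4 window itself. At least 1 heart peak was found in 30.4% of the 400-kb tiles, 27.7% of the 350-kb tiles and 45.9% of the 800-kb tiles, the tile lengths that match the other windows. At least 1 midbrain peak was found in 25.2%, 22.7% and 40.5% of these tiles. A single peak, as in the Gata5, Gata2 and Gata3 windows, was thus common for windows of these lengths. In the middle 50% of the Gata4 window alone there were 6 heart peaks. With peaks less than 1 kb apart joined, the whole Gata4 window held 8 heart peaks, while the tile counts given here are of unjoined peaks.

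**Figure D1:**
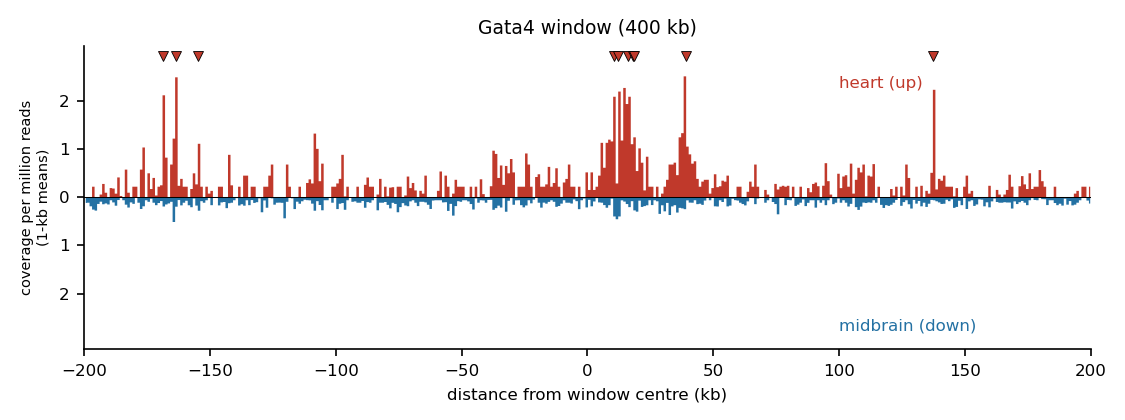
Deposited coverage across the Gata4 window in means of 1 kb, scaled to rpm, with heart upward and midbrain downward and the distance from the window centre in kb on the x axis. Triangles mark the 10 listed heart peaks, which lie in a group of 3 on the left, a group of 6 right of the centre and 1 peak further right.

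The 10 Gata4 peaks fell into 3 groups when peaks within 50 kb of each other were joined. The first group held 3 peaks over 14.2 kb, from 63681070 to 63695280 on chromosome 14. The second held 6 peaks over 29.4 kb, from 63860343 to 63889720, and the third was a single peak at 63986910 to 63987860. Between the first and second groups lay 165 kb without a listed peak, and between the second and the lone peak lay 97.2 kb. Over the whole heart list 23 such groups held 6 or more peaks, the longest with 14. The nearest heart peaks outside the window were weakly ranked, at rank 3197 and 153 kb beyond one edge, and at rank 2071 and 893 kb beyond the other.

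Gata4 peaks ranked high in the heart list. Their ranks ran from 114 to 2689 with a median of 251, and 7 of the 10 lay among the best 359 ranks, which are 9.98% of the list. They held a median of 9 heart reads, against 6 over all heart peaks. The best ranked lay at 63865095 to 63866896 in the second group, 1802 bp wide, with 17 heart reads (13.0 rpm) and 5 midbrain reads (0.852 rpm). Its heart over midbrain ratio of library-scaled reads was 15.3 (interval 5.42 to 53.1). Its 17 heart reads were split into 7 on the plus and 10 on the minus strand.

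The next 3 by rank came from the other groups. The peak at 63685724 to 63687034, rank 132, held 14 heart reads (10.7 rpm) and 8 midbrain reads (1.36 rpm), a ratio of 7.88 (interval 3.08 to 21.7). The lone peak at 63986910 to 63987860, rank 190, held 11 heart reads (8.44 rpm) and 1 midbrain read (0.170 rpm), a ratio of 49.5 whose interval ran from 7.20 to 2131. The peak at 63681070 to 63681746, rank 199, held 9 heart and 3 midbrain reads, a ratio of 13.5 (interval 3.37 to 77.6). All 4 of these best-ranked peaks were higher in the heart library, with intervals clear of 1.

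Of the other 6 Gata4 peaks, 1 lay in the first group and 5 in the second. Rank 214 at 63888367 to 63889720 held 13 heart and 5 midbrain reads, a ratio of 11.7 (interval 3.92 to 41.9). Rank 288 at 63860343 to 63860956 held 8 and 3 reads, and rank 306 at 63861890 to 63862658 held 9 and 8 reads, the lowest ratio among the well ranked ones at 5.06 (interval 1.73 to 15.1). These 3 peaks carried coverage in both libraries, with highest values of 4, 3 and 4 midbrain reads in the order given. The last 3 were narrow and rested on very few reads: 4 heart and 1 midbrain at 63694988 to 63695280, 3 and 0 at 63867929 to 63868199, and 2 and 3 at 63868243 to 63868604. For the last of these the interval of the ratio included 1 (0.251 to 26.2). It lay 43 bp from its neighbour. At these last 3 peaks deposited midbrain coverage reached 2, 2 and 4 reads in the order given.

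**Figure D2:**
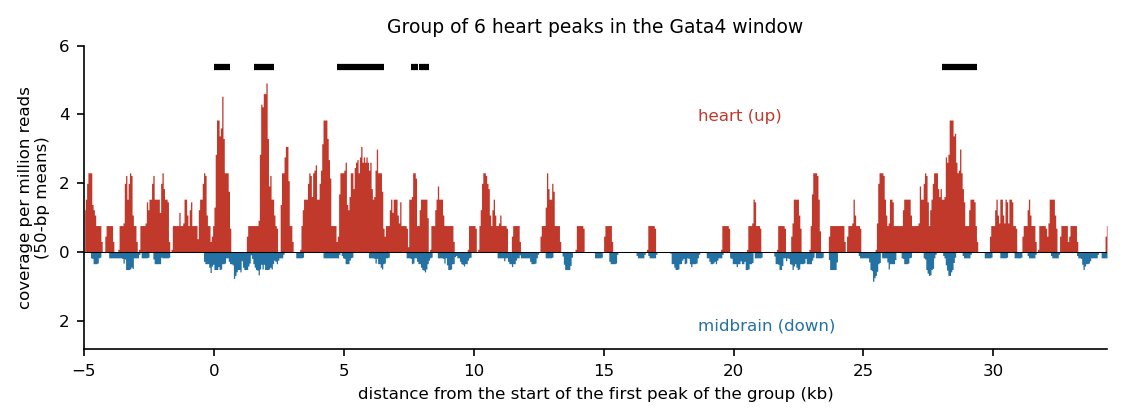
Deposited coverage around the second group of Gata4 peaks in means of 50 bp, scaled to rpm, heart upward and midbrain downward, against the distance in kb from the start of its first peak. Black bars mark the 6 listed peaks, and heart coverage also rises between them, where 68 heart reads lay outside the peaks.

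Together the 10 Gata4 peaks held 90 heart reads and 37 midbrain reads. Their heart over midbrain ratio was 10.95 (interval 7.39 to 16.5). For the complete heart list the value was 7.95 (interval 7.78 to 8.13). The intervals overlap, so a stronger heart excess at the Gata4 peaks than at heart peaks in general was not detectable at this depth. The ratio was similar in the first group (10.13, interval 4.96 to 21.9) and the second (9.75, interval 5.91 to 16.5). Mean coverage, scaled like the reads to rpm, was 2.33 for heart and 0.242 for midbrain, a ratio of 9.65. Set against the reads of the same window outside peaks instead of the whole library, the read ratio was 4.63 (interval 3.13 to 6.99). Because the peaks were listed from the heart reads themselves, an excess of the heart library there follows in part from the listing.

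Midbrain reads were also counted at the Gata4 peaks. Whether they entered the making of the heart list is not given in the sources used here. Their density was 2.06 times the density in the rest of the window (interval 1.44 to 2.86), with 37 reads in 8.40 kb of peaks and 838 outside. Heart reads were 9.53 times as dense in the same peaks (interval 7.51 to 12.0). Against flanks 5 to 10 kb away, the midbrain density was 1.62 times higher at the Gata4 peaks (interval 1.12 to 2.29) and 1.89 times higher over all heart peaks (interval 1.85 to 1.92). The Gata4 value thus did not differ from the general one beyond counting error. The heart density over these flanks was only 4.50 (interval 3.49 to 5.76), against 9.62 over all heart peaks (interval 9.46 to 9.78). Within the groups the flanks of 1 peak hold parts of the next, and heart reads lay densely between the peaks as well.

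**Figure D3:**
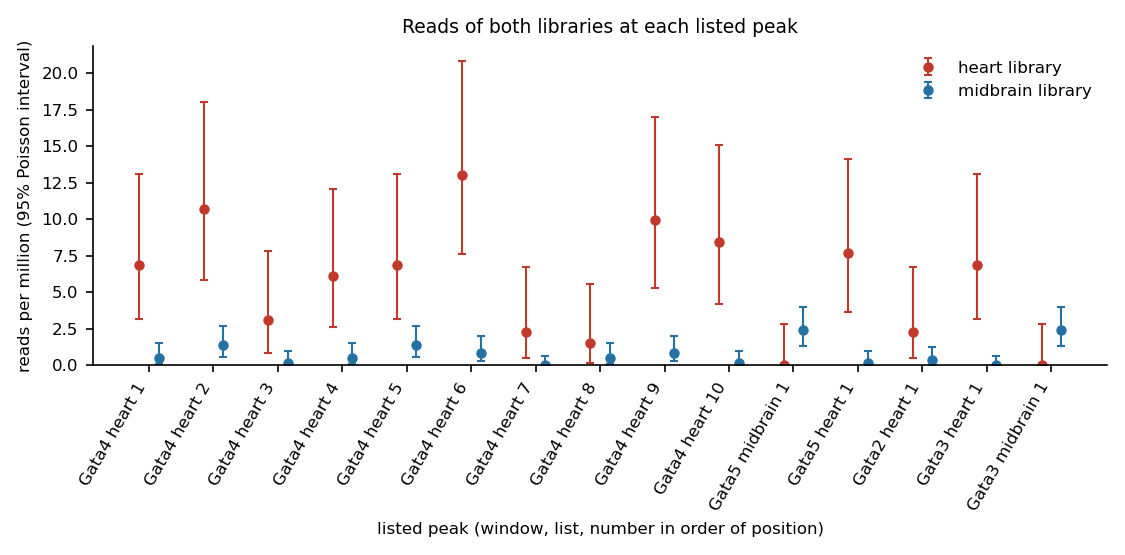
Library-scaled reads (rpm) of the heart library (red) and the midbrain library (blue) at each of the 15 listed peaks in order of position within each window, with exact Poisson 95% intervals. At all 13 heart peaks the heart point is the higher one, with the closest pair at 1.53 against 0.511 rpm, and at both midbrain peaks the heart library has no read.

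The excess of heart reads at Gata4 reached well beyond the listed peaks. The whole window held 530 heart reads (406 rpm) and 875 midbrain reads (149 rpm), a ratio of 2.73 (interval 2.44 to 3.04). With all listed peaks taken out, 440 heart and 838 midbrain reads remained and the ratio was still 2.36 (interval 2.10 to 2.66). Peaks held 17.0% of the heart reads of the window and 4.23% of its midbrain reads. The median ratio over all 400-kb tiles was 0.929, and 95% of the tiles lay below 1.59. A ratio of at least 2 was found in 0.592% of these tiles.

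One 400-kb tile in 6418 had a ratio as high as the Gata4 window. That tile did not overlap the window and held no heart peak, and its ratio was 8.25. Outside peaks, 3 tiles reached the ratio of the Gata4 window. Windows are set around a chosen gene and tiles are not, so a tile that cuts such a region in parts can fall below its true height. Tiles with more heart peaks had higher ratios outside the peaks too, with medians of 0.819 for tiles without a heart peak, 1.11 with 1, 1.26 with 2 to 4 and 1.52 with 5 or more (100 tiles). The Gata4 value of 2.36 lay above the highest tile of this last class, 2.30, and below the highest of the tiles with 2 to 4 peaks, 2.54. Whether base composition or the density of genes moves with these ratios was not tested.

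The heart excess within the Gata4 window was strongest around the second group of peaks. Cut into 8 parts of 50 kb, the window gave ratios from 1.44 to 5.14, and the interval lay above 1 in 6 parts. The highest was the fifth part, from 63850001 to 63900000, with 169 heart and 148 midbrain reads. Outside its 6 peaks it still had 117 heart and 124 midbrain reads, a ratio of 4.25 (interval 3.27 to 5.51). The fourth part, next to it and without any listed peak, had 70 heart and 104 midbrain reads, which gives 3.03 (interval 2.21 to 4.14). The third and the eighth part, with ratios of 1.44 and 1.45, had intervals that included 1. Within the second group itself the bases between the peaks held 68 heart and 85 midbrain reads, a ratio of 3.60 (interval 2.58 to 5.01), so heart reads there lay both in the peaks and between them.

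**Figure D4:**
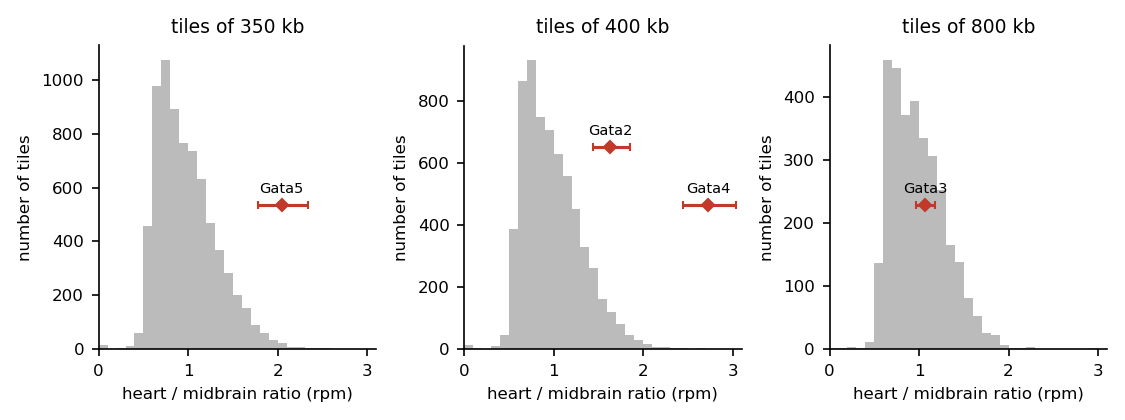
Heart over midbrain ratio of library-scaled reads in consecutive tiles of the genome (grey bars, number of tiles per ratio step, the last step also holding all higher values) and in the GATA windows of the same length (red diamonds with 95% intervals, placed at arbitrary heights). Gata4 at 2.73 and Gata5 at 2.04 lie in the far right tail, Gata2 at 1.63 near the upper end and Gata3 at 1.07 inside the bulk.

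Gata5, the other cardiac member, had a single heart peak but a window that also leaned to the heart. The peak lay on chromosome 2 at 180074474 to 180075269, rank 185, and held 10 heart reads (7.67 rpm) and 1 midbrain read (0.170 rpm). Its ratio was 45.0, known only between 6.40 and 1954, and its heart reads came from both strands (4 plus, 6 minus). With the midbrain library thinned to the depth of the heart the ratio fell to 10 (interval 1.42 to 434), and scaled to the same window outside peaks it was 22.3 (interval 3.17 to 966). Heart coverage reached 6 reads there against 1 in the midbrain. The peak thus stood close to those of Gata4 in rank and in reads, and apart from them in having no listed heart neighbour within the window. The nearest heart peak beyond the window was rank 1011, 180 kb past its lower edge, and no heart peak was listed above its upper edge on chromosome 2.

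Over the whole Gata5 window there were 320 heart and 705 midbrain reads, a ratio of 2.04 (interval 1.78 to 2.34). Outside the peaks it was 2.02 (interval 1.76 to 2.32), so nearly all of this difference lay away from the listed sites. A ratio of at least 2 was found in 0.695% of the 350-kb tiles, and 0.559% were at or above the Gata5 window. The 50-kb part with the heart peak had a ratio of 3.78 (interval 2.66 to 5.36), and the next part, with no listed peak, had 3.44 (interval 2.45 to 4.81). The last part of the window held 34 heart and 165 midbrain reads, a ratio of 0.928 (interval 0.622 to 1.35). On GRCm38 the neighbours of Gata5 on one side are the microRNA genes Mir1a-1 and Mir133a-2, known from heart and skeletal muscle, so the window is not one of Gata5 alone. The heart excess cannot be assigned to either gene from these data. Gata4, Gata2 and Gata3 have neighbouring genes on GRCm38 too, such as Neil2 and Blk, Dnajb8, and Taf3, in that order. The ratios of those windows likewise cannot be assigned to a single gene.

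The midbrain peak of the Gata5 window lay 112 kb from the heart peak, at 179962346 to 179962887, and had rank 1522. It held 14 midbrain reads (2.39 rpm, 7 on each strand) and no heart read. The midbrain over heart ratio was only bounded from below, at 0.737 by the lower end of its exact interval, so a difference was not detectable at this depth. Scaled to the same window outside peaks, this bound was 1.49, which excludes 1. Across the midbrain list, the interval lay on the midbrain side at 21.6% of peaks.

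Gata2 had the weakest listed peak of the 3 remaining windows. It lay on chromosome 6 at 88153073 to 88153405, was 333 bp wide and had rank 2466 in the heart list. It held 3 heart reads (2.30 rpm) and 2 midbrain reads (0.341 rpm), a ratio of 6.75 with an interval from 0.774 to 80.8 that included 1. The value moved with the settings, to 3.38 with reads moved by 150 bp, 3.75 with boundaries widened by 200 bp and 3.0 with the midbrain library thinned, and each of these intervals included 1 too. The midbrain coverage there reached 5 reads and the heart coverage 3. Mean heart coverage was 1.98 rpm and mean midbrain coverage 0.577 rpm, which was the highest midbrain coverage among the 13 heart peaks. The whole window held 344 heart and 948 midbrain reads, a ratio of 1.63 (interval 1.44 to 1.85), and 4.13% of the 400-kb tiles were as high or higher. Its 8 parts of 50 kb ranged only from 1.29 to 2.27, with no part set apart as at Gata4, and the interval lay above 1 in 5 of them. The highest was the first part, at the lower edge of the window and without a listed peak (interval 1.64 to 3.11). The part with the heart peak had a ratio of 1.78 (interval 1.23 to 2.53). No midbrain peak was listed within 454 kb of either edge of the window.

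Gata3 had 1 peak of each tissue and the window ratio closest to 1. The heart peak lay on chromosome 2 at 9891426 to 9892397, rank 607, with 9 heart reads (6.90 rpm, 5 on the plus and 4 on the minus strand) and no midbrain read. The ratio was at least 8.89, the lower end of its exact interval. This bound fell to 5.61 with boundaries widened by 200 bp and to 1.97 when the midbrain library was thinned to the depth of the heart. The deposited midbrain coverage was 0 over the whole peak. Such a peak is common in the heart list, where 418 of the 3597 peaks held no midbrain read. The midbrain peak lay 173 kb away at 10064194 to 10064911, rank 2011, with 14 midbrain reads (2.39 rpm, 5 plus and 9 minus) and no heart read. Deposited heart coverage nevertheless reached 1 read within this midbrain peak. As at Gata5, the lower end of the exact interval of the midbrain over heart ratio was 0.737.

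The Gata3 window was the longest of the 4 and held 473 heart and 1991 midbrain reads. Its ratio of 1.07 (interval 0.965 to 1.18) did not differ from 1 beyond counting error, and 35.9% of the 800-kb tiles were as high or higher. In the middle 50% of the window the ratio was 1.19 with an interval of 1.03 to 1.36, which excludes 1, so the call depends on the length of the window. A ratio of at least 2 was rarer at this length, in 0.249% of tiles. Among its 16 parts of 50 kb, the interval lay above 1 in 2 parts, the one with the heart peak (1.73, interval 1.20 to 2.46) and another 1 (1.51, interval 1.05 to 2.14), and below 1 in none. With 16 to 45 heart reads per part, smaller differences were not detectable.

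**Figure D5:**
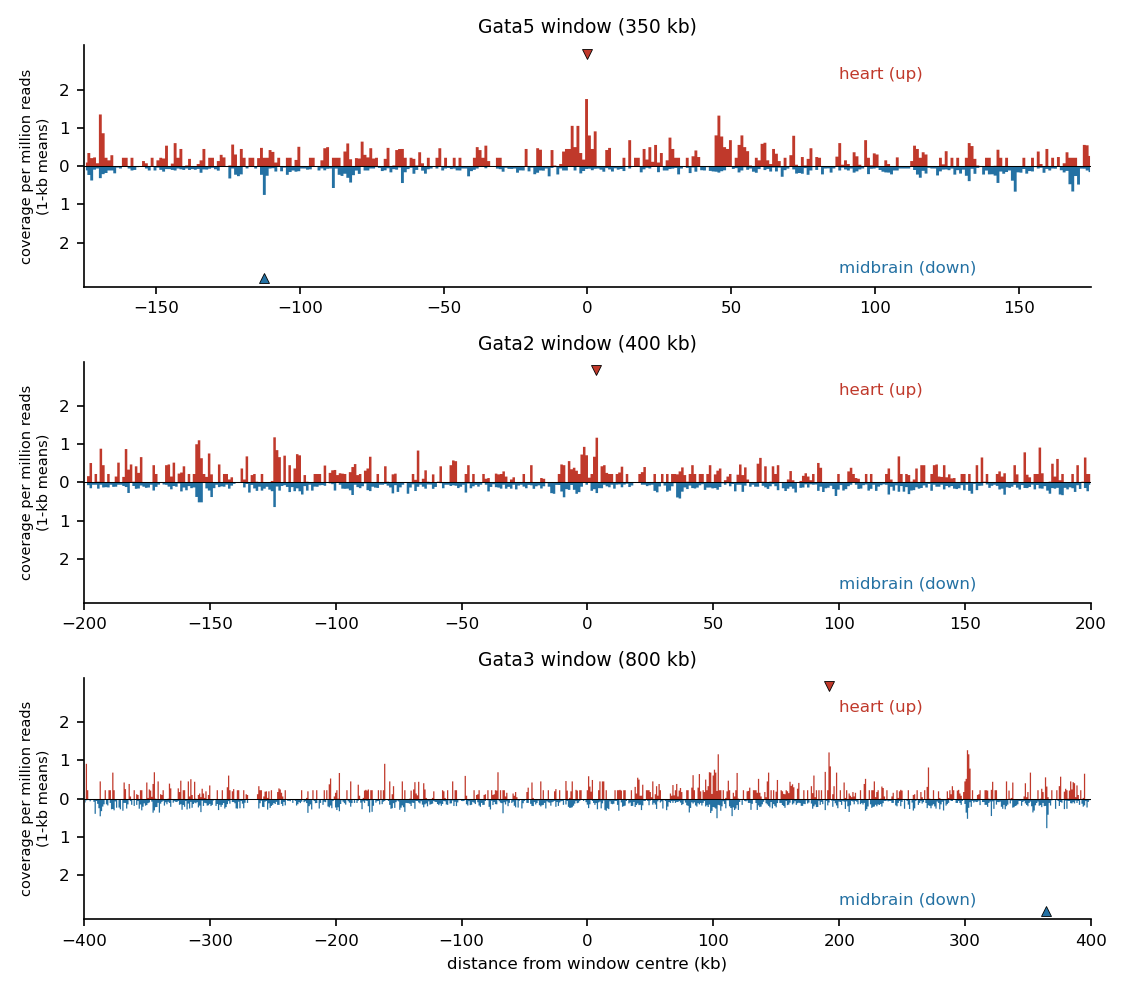
Deposited coverage across the Gata5, Gata2 and Gata3 windows in means of 1 kb, scaled to rpm, heart upward and midbrain downward, against the distance from the window centre in kb and with the same y axis as for Gata4. Red triangles mark the heart peaks, 1 in each window, and blue triangles the midbrain peaks, 1 each at Gata5 and Gata3.

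Read against each other, the windows formed an order in their share of heart reads. Per 100 kb, the heart library had 102 rpm at Gata4, 70.1 at Gata5, 66.0 at Gata2 and 45.3 at Gata3. The midbrain library had 37.3, 34.3, 40.4 and 42.4 rpm per 100 kb in the same order, a much narrower range. The order of the ratios was the same as that of the heart levels, from 2.73 at Gata4 through 2.04 and 1.63 to 1.07 at Gata3. Over the whole windows the intervals of Gata4 and Gata5 did not overlap, nor did those of Gata2 and Gata3, while those of Gata5 (1.78 to 2.34) and Gata2 (1.44 to 1.85) did. Outside peaks, the intervals of Gata4 and Gata5 did overlap (2.10 to 2.66 against 1.76 to 2.32). They also overlapped in the middle 50% of each window (2.72 to 3.63 against 2.35 to 3.42). With the midbrain library thinned they overlapped too (2.24 to 3.12 against 1.65 to 2.43). The intervals of Gata2 and Gata3 overlapped in the middle 50% (1.32 to 1.92 against 1.03 to 1.36). Those of Gata5 and Gata2, which overlapped over the whole windows, did not overlap in the middle 50% (2.35 to 3.42 against 1.32 to 1.92). Overlapping intervals do not by themselves mean equal ratios, and no test between windows was run.

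At peak level, all 13 heart peaks passed a heart over midbrain ratio of 2. So did 98.1% of the whole heart list, so this count says nothing particular about the GATA windows. The interval lay above 1 at 11 of the 13, against 89.9% of the list. Of the 13, 2 had no midbrain read and so pass at any fold. Likewise neither midbrain peak had a heart read, so the fold of 2 tests nothing there. Deposited coverage counts reads lengthened to 300 bp and can be above 0 where no read was placed. It reached 2 midbrain reads at the Gata4 peak without a placed midbrain read, and 1 heart read at the Gata3 midbrain peak. It was 0 for midbrain at the Gata3 heart peak and 0 for heart at the Gata5 midbrain peak. In the whole midbrain list 78.1% of peaks passed it, with 1134 of its 2786 peaks lacking a heart read. At neither midbrain peak did the interval exclude 1. No peak of either list overlapped a peak of the other within the windows. For the heart this is 0 of 13 peaks, which allows a share of up to 23.1%, and over the whole lists 4.28% of heart peaks and 5.56% of midbrain peaks were shared.

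Sites without a listed peak were also examined, by taking from each window the 500-bp bin with most reads of a library at least 300 bp from any listed peak. These bins were picked for their counts, so their values are a description. For the heart library the best bins held 5 reads at Gata4, Gata5 and Gata2 and 4 at Gata3, within the range of the listed heart peaks. The Gata5 bin, 180120001 to 180120500 on chromosome 2, held 1 midbrain read beside its 5 heart reads. The Gata2 bin, 87995001 to 87995500 on chromosome 6, held 3 midbrain reads beside its 5, and so more heart reads than the listed Gata2 peak. For the midbrain library the best bins held 9 reads at Gata5 and at Gata3, 7 at Gata2 and 6 at Gata4. The Gata3 one lay at 10001001 to 10001500 on chromosome 2 and also held 1 heart read. The lowest count at any listed midbrain peak was 5 midbrain reads, so unlisted bins of the GATA windows reached the read numbers of weak listed peaks in both tissues.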

How the data were processed

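Per the labels, p300 was measured by ChIP-seq in 1 library of heart and 1 of midbrain, with 36 bp reads from gel-selected fragments of 300 to 500 bp. Deposited for each tissue on mm9 were read positions, coverage and a ranked list of peaks, per the submitters' processing notes and the file headers. The deposited coverage signal counts unique reads lengthened to 300 bp at 25 bp steps, unscaled, per the file headers. The rank is the only value in the peak lists. Peak caller, thresholds, control and the midbrain aligner are not given in the sources used here.

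Computation used Python 3.11.15 with scipy 1.17.1, pandas 2.3.3, numpy 2.4.6 and matplotlib 3.10.9. A read was placed by its 5 prime end moved by 23 bp (heart) or 34 bp (midbrain), shifts carried over from an earlier analysis of these libraries. The heart shift lay near the lower limit of the range searched there. Both shifts are short against the gel-selected fragments, so reads were placed near fragment ends. Counts at narrow peaks with few reads can therefore change with this setting. Reads moved by 150 bp and reads not moved were tried as alternatives. Reads were scaled to all aligned reads (rpm). Ratios carry exact conditional binomial intervals, checked on simulated data. PCR reads are not independent molecules, although no position and strand was repeated among the deposited reads of either library. Overlap meant at least 1 bp. Tiles were consecutive stretches of chromosomes 1 to 19 and X that hold reads. Values are given in full for the 4 best-ranked heart and 3 best-ranked midbrain peaks of each window. The windows, the lists and these rules were chosen with earlier results of these data known. The 50-kb parts, the tile classes and the unlisted bins were added after the values had been seen. No gene annotation of mm9 was used, so places relative to exons are not given.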

Additional observations from a re-analysis of the deposited data

How the results depend on the processing

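Of 129 alternative values, 110 stayed within the interval of the reported ratio or within 1.5 times the reported count or bound, and none turned a direction that had been called. Some settings could barely change a value, such as reads moved by 150 bp in a whole window. Wide intervals also let large changes count as staying, as from 45.0 to 10 at the Gata5 heart peak with the midbrain library thinned. In the middle 50% of each window the read ratio was 3.14 at Gata4, 2.84 at Gata5 and 1.19 at Gata3, where the interval (1.03 to 1.36) then excluded 1, with 6 heart peaks at Gata4 and 0 midbrain peaks at Gata5 and Gata3. Reads moved by 150 bp gave a lower bound of the midbrain over heart ratio of 0.355 at the Gata3 midbrain peak, and of 0.790 over both midbrain peaks, where it had been 1.58. With the midbrain library thinned to the depth of the heart, this bound was 0.188 at Gata5, 0.413 at Gata3 and 0.916 over both, the Gata3 heart peak was bounded at 1.97, the Gata5 heart peak had a ratio of 10 and the Gata2 heart peak 3.0, and the 13 heart peaks had a ratio of 8.62, all resting on fewer reads. Boundaries widened by 200 bp gave 8.46 over the 13 heart peaks (12.6 as listed) and a Gata3 bound of 5.61, and 250 bp on each side of the midpoints gave a Gata3 bound of 4.13. Scaled to the same window outside peaks, an alternative chosen after seeing the data, the Gata4 heart peaks had a ratio of 4.63 and the Gata5 midbrain peak a lower bound of 1.49. Peak coverage over window coverage gave 3.54 at Gata4. The cause of these shifts was not tested. No paired analysis was possible because each tissue has 1 library. A single heart read is worth 0.767 rpm, which limits every ratio at a peak.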
